A study of Mus musculus with 8 samples.

Results

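Cholesterol synthesis and sterol handling were followed through 28 genes in mouse bone marrow B cells. The genes were chosen by name, as enzymes of the pathway, regulators of the transcription factor SREBP or genes of sterol transport, and each matched 1 of the 54532 rows of the count table. The libraries came from bulk RNA of B cells taken from bone marrow on magnetic beads (MACS), in 3 samples of sham-operated mice (Sham) and 3 of ovariectomized mice (OVX). Removal of the ovaries ends most estrogen production and serves as a model of estrogen deficiency after menopause. Strain, genotype and age are not given in the labels of these libraries. The study describes its replicates as mice, but the labels do not tie each library to an animal, so p-values measure the spread between these samples, which may be technical. The question asked of the data was whether the sterol genes of marrow B cells differed between OVX and Sham.

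Animal cells build cholesterol from acetyl-CoA. The first stretch of the pathway makes mevalonate and from it farnesyl pyrophosphate, which also feeds protein prenylation, and the second joins farnesyl units into squalene, closes the ring system to lanosterol and trims it to cholesterol. SREBP proteins switch these genes on when sterol is low in the endoplasmic reticulum, after SCAP carries them to the Golgi, and INSIG proteins hold SCAP back when sterol is plentiful. LXR receptors respond to oxysterols and raise genes that move cholesterol out of the cell.

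The libraries held between 23838775 and 33136701 counts. Cd79a, a signalling chain of the B cell receptor, stood at 1548 to 1883 CPM (counts relative to library size, scaled with TMM factors) in the 6 libraries, while Cd3e of T cells had 3 to 33 reads. Libraries differed in makeup beyond the surgery. Sham replicate 2 had the highest summed level of 10 mature B cell markers (4337 CPM, against 2432 to 2753 in the others) and the lowest of 15 cell cycle genes (3200 CPM, against 4003 to 4706). In Sham replicate 3, 17 neutrophil genes took 1.02% of all counts, against 0.116% to 0.430% elsewhere. Shifts of this kind are given below beside the genes that move with them.

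The regions before the start sites of the genes shared a sequence feature that their choice did not use. RefSeq windows of 300 bases, 250 before and 50 after a start site, were at hand for 23 of the 28 genes on GRCm38.p6, the build of the files (mm10). Abcg1, Fdft1, Fdps, Sqle and Stard4 had no window. The 23 genes had 31 windows, and all 27025 genes with a window had 32851. A gene counted for a motif if any of its windows held it, so genes with more windows had more places for a match. The NF-Y box CCAAT, read on both strands, stood in a window of 20 of the 23 genes, against 42.8% of the 10585 genes with a window that were tested here. The Sp1 box GGGCGG stood in 21 of the 23, against 65.9% of the tested genes. The consensus sterol regulatory element TCACNCCAC was found in 1 of the 23, Hmgcs1, at -137 to -129 from the start site, against 1.39% of the tested genes. Only this consensus was searched, so elements that differ from it were not counted and the other genes cannot be said to lack one. The hypoxia element cores ACGTG and GCGTG were in 6 and 14 of the 23, against 28.7% and 54.1%. Both strands were read for each motif, and none of these motifs contains another. These are matches of letters and not sites of binding, and the tested genes are of many kinds, so no test was made.

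The 160 bases before the start are shown for 3 genes, 5′ to 3′ on the plus strand, with the sterol element and NF-Y boxes of either strand in capitals. Hmgcs1 (chr13:119690191-119690350) carries the consensus element and an NF-Y box, and Srebf2 (chr15:82147109-82147268) encodes the main activator of the pathway. Idi1 (chr13:8885446-8885605) holds a pair of NF-Y boxes near the start. It is shown as 1 of the 2 genes whose groups did not overlap (7.14%, against 8.44% of all genes). A link between boxes and groups was not tested.
Hmgcs1: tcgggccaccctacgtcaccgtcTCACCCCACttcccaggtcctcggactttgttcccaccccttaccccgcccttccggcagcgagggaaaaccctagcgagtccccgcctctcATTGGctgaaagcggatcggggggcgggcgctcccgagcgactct
Idi1: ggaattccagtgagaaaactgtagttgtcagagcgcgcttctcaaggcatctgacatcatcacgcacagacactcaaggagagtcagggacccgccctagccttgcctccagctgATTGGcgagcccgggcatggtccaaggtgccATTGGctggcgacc
Srebf2: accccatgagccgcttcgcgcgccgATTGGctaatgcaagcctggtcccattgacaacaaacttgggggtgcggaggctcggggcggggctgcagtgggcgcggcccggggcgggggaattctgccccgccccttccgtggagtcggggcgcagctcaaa

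None of the 28 genes passed the test between OVX and Sham. All 28 passed the filter on low counts, and 0 were called at an adjusted p under 0.05 (edgeR quasi-likelihood test, Benjamini-Hochberg over 15305 genes), as were 0 (0%) of all genes tested. DESeq2 and limma-voom also called 0. Before adjustment 0 of the 28 had a p under 0.05 with edgeR and with DESeq2 and 1 (Lss) with limma-voom, where 574 genes (3.75%) did among all with edgeR, 1.47% higher and 2.28% lower in OVX. In OVX 13 of the sterol genes had the higher fitted level and 15 the lower, against 48.2% higher and 51.8% lower among all genes. Their log2 fold changes had a median of -0.031, beside -0.0081 for all genes tested. With libraries scaled on 12 general B cell genes 8 were higher, and Fdft1, Ebp, Srebf2, Scap and Mylip crossed 0. That scaling put the median of all genes tested at -0.077. Fitted log2 fold changes ran from -0.33 (Fdps) to 0.18 (Acat2). For 23 of the 28 the 95% interval lay within 1.5-fold in both directions, as it did for 54.7% of all genes, which bounds the size of a change that could have been missed in most of the pathway. The other 5 intervals, those of Mvd, Idi1, Fdps, Lss and Abca1, reached past 1.5-fold lower, and none of the 28 reached past 1.5-fold higher.

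**Figure D1:**
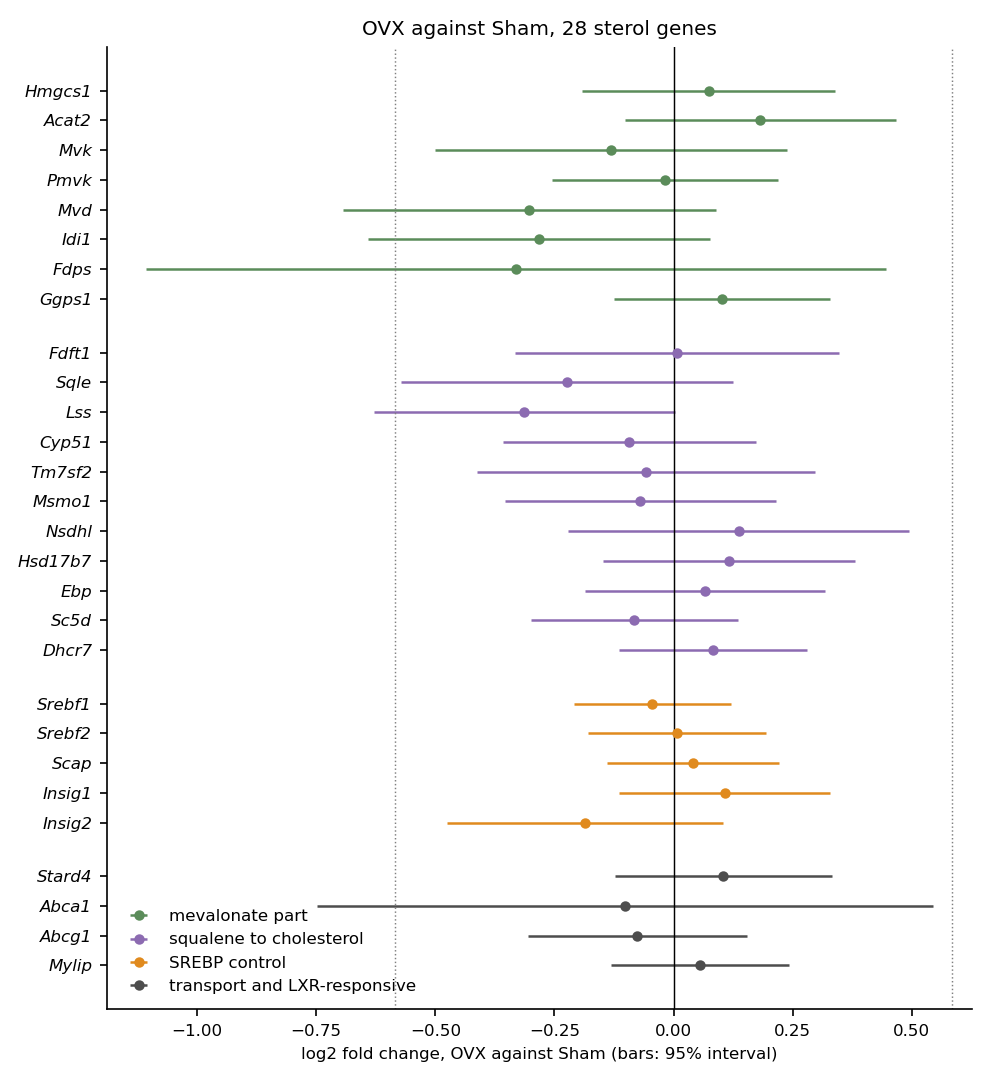
Log2 fold change of OVX against Sham for each of the 28 genes (x axis) with its 95% interval from the edgeR fit over 3 libraries per group, coloured by role, with dotted lines at 1.5-fold. All intervals include 0, that of Lss ends at 0.002, and the widest belong to Fdps and Abca1.

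The level of the pathway as a whole was steady from library to library. Summed over the 19 enzymes, it was 376 ± 11.0 CPM in Sham and 374 ± 7.07 CPM in OVX (SD, n = 3), and the highest library exceeded the lowest by a factor of 1.06. Sums over the neighbouring pathway lists described below were nearly as steady, with factors from 1.07 (isoprenoid use) to 1.17 (LXR list). A sum over many genes evens out their spread. The first stretch, with Ggps1 of a side branch counted in, summed to 164 ± 5.51 CPM in Sham and 166 ± 5.13 CPM in OVX. Ggps1 was the largest part of that sum, with means of 47.8 CPM in Sham and 51.3 CPM in OVX, and differed by more than the sum did. The second stretch summed to 212 ± 5.61 CPM in Sham and 208 ± 2.12 CPM in OVX. Single genes varied more than the sums, with a median ratio of 1.27 between the highest and the lowest library over the 28, beside 1.43 over all genes tested, a set that holds many genes of few reads. In 26 of the 28 this ratio stayed under 1.5, and the others were Fdps at 1.95 and Abca1 at 2.08.

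**Figure D2:**
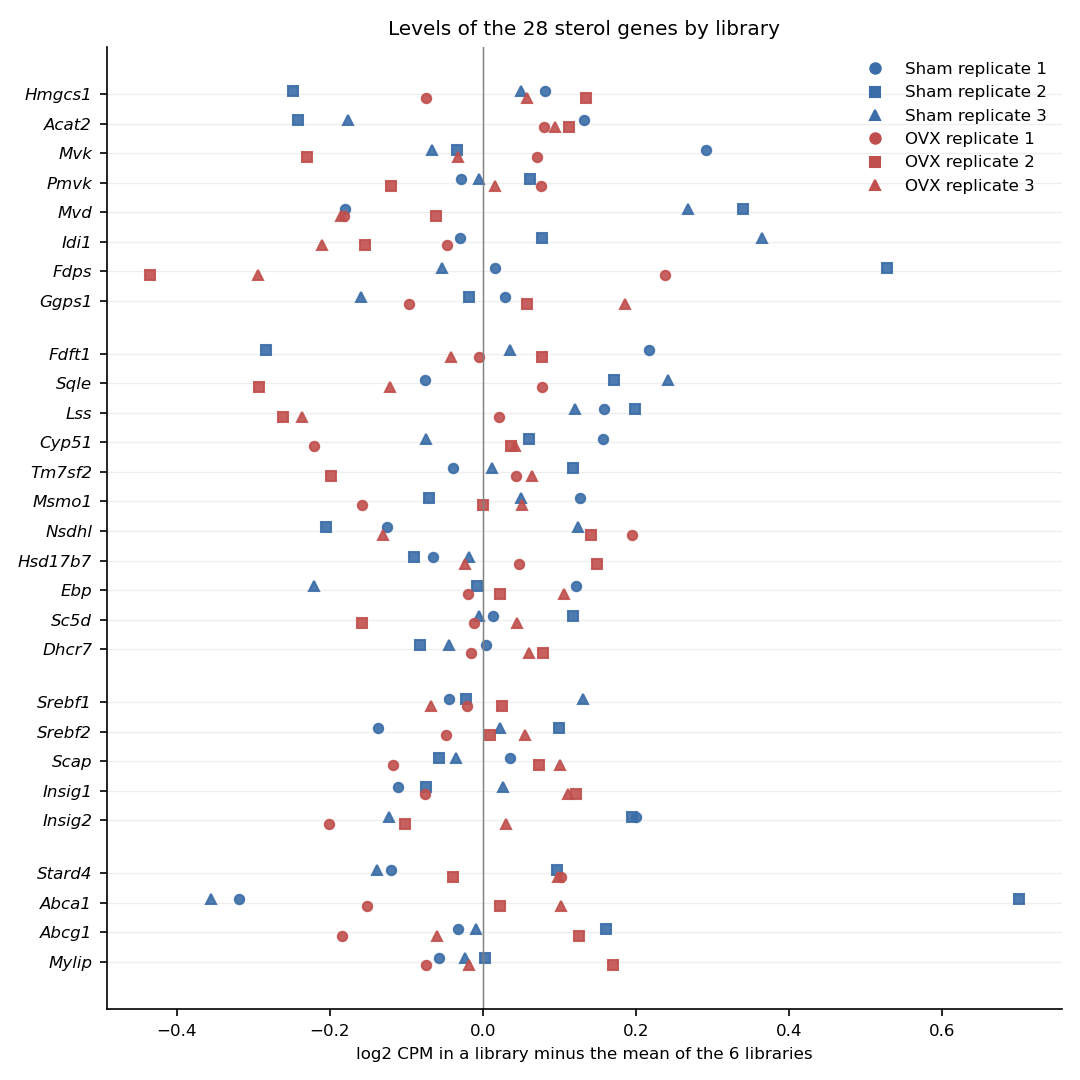
Log2 CPM of each sterol gene in each of the 6 libraries after subtraction of the gene's mean (x axis), with circles, squares and triangles for replicates 1, 2 and 3 and colours for Sham and OVX. Most points lie within 0.3 of the mean, the 3 OVX points lie below the 3 Sham points for Lss and Idi1 alone, and Abca1 in Sham replicate 2 lies farthest out.

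Pairs of sterol genes went both ways across the libraries. The median correlation of log2 levels over the 378 pairs of sterol genes was -0.0039 over 6 libraries, and -0.033 over the 171 pairs of the 19 enzymes, beside -0.001 for all pairs of tested genes. Single pairs ran from -0.970 to 0.939. By the same measure the 15 cell cycle genes reached 0.909 and the 17 neutrophil genes 0.990. These values are a description, since all pairs share the same 6 libraries. Counting noise, which weighs most on Fdps (21 to 41 reads per library), also enters them, and its part was not tested.

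The group for the stretch from acetyl-CoA to farnesyl pyrophosphate also held Ggps1, which uses that product in a side branch. Of these 8 genes 3, Ggps1 among them, had the higher fitted level in OVX and 5 the lower, and none passed the test. Idi1, the isomerase that interconverts the building blocks of isoprenoids, had 10.5, 11.3 and 13.8 CPM in Sham and 10.3, 9.60 and 9.23 CPM in OVX. The groups did not overlap, though the highest OVX and lowest Sham library, 10.3 and 10.5 CPM, nearly met. The log2 fold change was -0.28 ± 0.15 (SE; unadjusted p = 0.105, edgeR adjusted p = 0.811; exact two-sided permutation p = 0.1, the smallest that 3 against 3 can give). Groups that did not overlap were seen in 2 of the 28 genes, Idi1 and Lss, both lower in OVX, a share close to the 8.44% among all genes tested (4.33% higher and 4.12% lower in OVX). Over the alternative fits the Idi1 value ran from -0.37, without Sham replicate 1, to -0.10, with the neutrophil share of the counts as a covariate. Without Sham replicate 3, the library richest in neutrophil reads, it was -0.17. The mean summed neutrophil level was itself lower in OVX (0.41-fold, with overlapping libraries), so that covariate is partly tied to the groups. The part of neutrophil reads was not tested.

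Pmvk, the phosphomevalonate kinase, had the highest p of this stretch. Its levels were 20.3, 21.7 and 20.7 CPM in Sham and 21.9, 19.1 and 21.0 CPM in OVX, intermingled, with a log2 fold change of -0.018 ± 0.10 (SE). Hmgcs1, the synthase that condenses acetoacetyl-CoA with acetyl-CoA, ranged over 30.4 to 38.2 CPM in Sham and 34.3 to 39.6 CPM in OVX. Its log2 fold change was 0.07 ± 0.11, and its upstream sequence holds the consensus sterol element. Acat2, the thiolase of the first step, had the highest fitted fold change of the 28, at 0.18 ± 0.12, with 19.02 to 24.65 CPM in Sham and 23.8 to 24.3 CPM in OVX. Mvd, which decarboxylates mevalonate pyrophosphate, had -0.30 ± 0.17. Both Acat2 (0.30) and Mvd (-0.45) had an unadjusted p under 0.05 without Sham replicate 1, the library on the OVX side in each, but adjusted p was 0.273 in that fit for both. Mvk, the mevalonate kinase, and Ggps1, which makes geranylgeranyl pyrophosphate, had -0.13 ± 0.16 and 0.10 ± 0.10. Fdps, the farnesyl pyrophosphate synthase, rested on 21 to 41 reads per library, which gave the widest interval of all (log2 fold change -0.33, from -1.11 to 0.45). How reads of near-identical copies were counted is not given in the sources used here, so its count is uncertain.

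From squalene to cholesterol, 5 of 11 genes had the higher fitted level in OVX and 6 the lower, and again none passed. Lss, the synthase that folds oxidosqualene into lanosterol, came nearest. It had 13.2, 13.6 and 12.9 CPM in Sham and 12.02, 9.88 and 10.1 CPM in OVX, on 280 to 386 reads. The OVX libraries were all below the Sham libraries, OVX replicate 1 by the least. The log2 fold change was -0.31 ± 0.13 (SE, 95% interval -0.63 to 0.002; unadjusted p = 0.0511, edgeR adjusted p = 0.811; exact permutation p = 0.1). Across alternative fits it stayed negative, between -0.41 and -0.23, and adjusted p between 0.338 and 1.00. RefSeq places a noncoding gene, 4930483K19Rik, over 11269 bases of Lss. Since no strand setting of the counting is given, reads of the overlap cannot be assigned to either gene. The same holds for 774 bases that Fdft1 shares with the protein-coding gene Ctsb and 114 that Srebf1 shares with the protein-coding Rai1. It also holds for 3213 bases that Mvd shares with the noncoding Gm51557.

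Fdft1, the squalene synthase, stood at the other end with the highest p of the 28. Its levels were 21.6, 15.3 and 19.1 CPM in Sham and 18.5, 19.6 and 18.1 CPM in OVX, the OVX values lying inside the Sham range, and the log2 fold change was 0.0073 ± 0.15, a sign that turned negative with 3 other scalings, on total counts, upper quartiles and B cell genes. Sqle, the epoxidase that commits squalene to sterols, had -0.22 ± 0.15. Its alternatives ran from -0.32, without OVX replicate 1, to -0.03, with the neutrophil share as a covariate. The enzymes that trim lanosterol lay closer to 0. Cyp51, the lanosterol demethylase, had -0.09 ± 0.11, the sterol reductase Tm7sf2 -0.06 ± 0.15, the methyl oxidase Msmo1 -0.07 ± 0.12, and the desaturase Sc5d -0.08 ± 0.09. On the other side of 0 were Nsdhl (0.14 ± 0.15), a decarboxylating dehydrogenase, and its partner reductase Hsd17b7 (0.12 ± 0.11), with the sterol isomerase Ebp (0.07 ± 0.11) and the last reductase, Dhcr7 (0.08 ± 0.08). Dhcr7 was the steadiest of the 28 genes, between 24.4 and 27.2 CPM over all 6 libraries, a ratio of 1.12.

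The genes that set SREBP activity also varied little, with ratios of the highest to the lowest library from 1.15 (Srebf1) to 1.32 (Insig2). Srebf2, which encodes the SREBP form that drives cholesterol genes, had 226, 266 and 252 CPM in Sham and 240, 250 and 258 CPM in OVX, and Srebf1, whose products also drive fatty acid synthesis, had 98.8, 100.4 and 111 CPM in Sham and 100.4, 103.6 and 97.1 CPM in OVX. The groups intermingled for both. Their log2 fold changes were 0.0077 ± 0.080 and -0.044 ± 0.070, and the 95% intervals allowed a fold between 0.883 and 1.14 for Srebf2 and between 0.865 and 1.09 for Srebf1. Scap, the sterol sensor that escorts SREBP, had 0.04 ± 0.08. These are RNA levels, while SREBP and SCAP are controlled largely by transport and cleavage of the proteins, which were not measured.

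The INSIG pair leaned in opposite directions without either passing the test. Insig1, itself a target of SREBP, had 27.1, 27.8 and 29.8 CPM in Sham and 27.7, 31.8 and 31.6 CPM in OVX, a log2 fold change of 0.11 ± 0.09. Insig2 had 28.1, 27.97 and 22.4 CPM in Sham and 21.3, 22.8 and 24.9 CPM in OVX, a log2 fold change of -0.19 ± 0.12 (unadjusted p = 0.173, edgeR adjusted p = 0.811). Sham replicate 3 lay among the OVX libraries in Insig2. The ratio of Insig1 to Insig2 reads was 0.964, 0.992 and 1.33 in Sham and 1.30, 1.40 and 1.27 in OVX, overlapping through that library (exact two-sided permutation p = 0.3, 0.75 after adjustment over the 3 ratios computed). Srebf1 to Srebf2 averaged 0.419 ± 0.0363 in Sham and 0.403 ± 0.0230 in OVX (SD, n = 3; exact permutation p = 0.5). Insig2 had an unadjusted p under 0.05 without Sham replicate 3 (log2 fold change -0.29) and with the neutrophil share as a covariate (-0.35), with adjusted p from 0.624 to 1.00 over its alternatives. RefSeq places the noncoding gene Gm35223 over the whole 7251 bases of Insig1.

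Among the transport and LXR-responsive genes, 2 of 4 had the higher fitted level in OVX and 2 the lower. Abca1, the exporter that hands cholesterol to apolipoprotein A-I, was the most uneven sterol gene. It had 95.7, 194 and 93.3 CPM in Sham and 107, 121 and 128 CPM in OVX. Sham replicate 2 was above every other library, and the OVX libraries lay above the other Sham libraries. The log2 fold change was -0.10 ± 0.28 (SE; edgeR adjusted p = 0.926), but 0.33 ± 0.09 without Sham replicate 2 (unadjusted p under 0.05, not past adjustment) and 0.21 with the cell cycle level as a covariate. The same library had the highest summed level of 16 monocyte and macrophage markers, 2594 CPM, followed by OVX replicate 3 at 2146 CPM and the others at 717 to 1216 CPM, besides the most mature B cell RNA. C1qa, a complement gene of resident macrophages, had 222 CPM there and 187 CPM in OVX replicate 3, against 55.6 to 103 CPM. Fcer2a (CD23) of mature B cells had 433 CPM there and 131 to 200 CPM elsewhere. OVX replicate 3 had the second highest Abca1 level as well, but the order of the other libraries differed. OVX replicate 1 had the lowest sum of macrophage markers, 717 CPM, with 107 CPM of Abca1, while Sham replicate 1 had 1216 and 95.7 CPM. The part of either cell type in the Abca1 level was not tested, and in bulk RNA fewer cells of a type and less RNA per cell cannot be told apart.

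**Figure D3:**
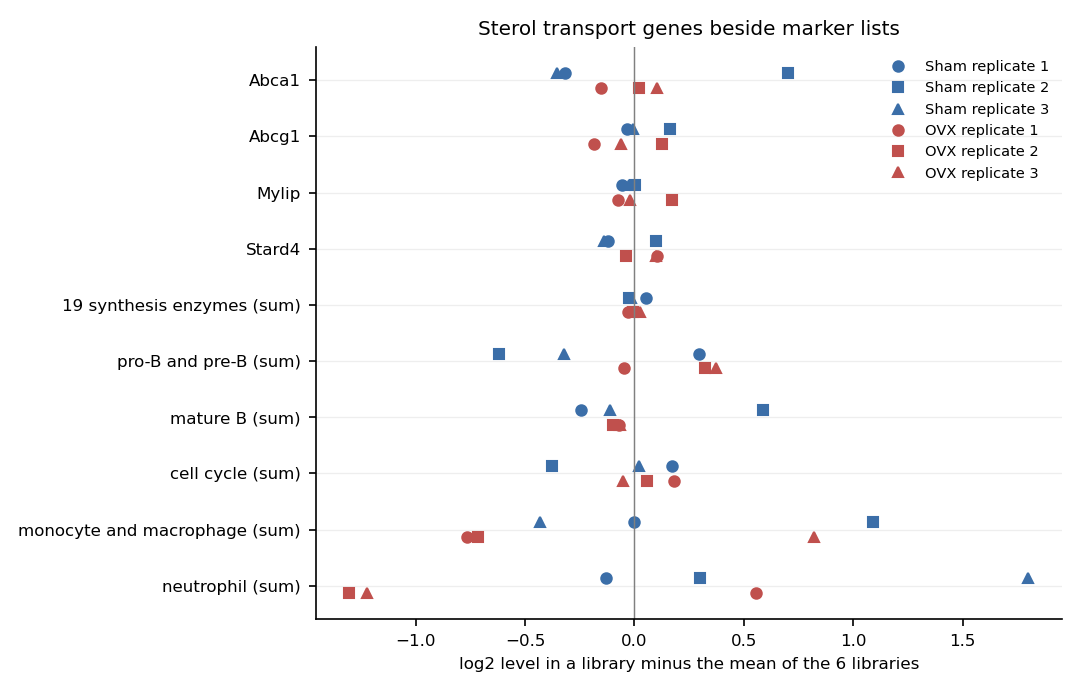
Log2 level of the 4 transport and LXR-responsive genes and of summed gene lists in each library, relative to the mean of the 6 (x axis), with symbols for replicates and colours for Sham and OVX. Sham replicate 2 is the highest library for Abca1, mature B and macrophage genes and the lowest for pro-B, pre-B and cell cycle genes, while the sum of the 19 synthesis enzymes stays within 367 to 388 CPM.

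The other 3 did not share that spread. Abcg1, which exports sterol to lipoprotein particles, had 74.9, 85.6 and 76.2 CPM in Sham and 67.4, 83.6 and 73.5 CPM in OVX, with Sham replicate 2 again highest by a small margin and a log2 fold change of -0.08 ± 0.10. Mylip, the ubiquitin ligase that lowers lipoprotein receptors after LXR activation, had 209, 218 and 214 CPM in Sham and 207, 245 and 215 CPM in OVX, a log2 fold change of 0.06 ± 0.08. Stard4, a carrier of cholesterol between membranes, had 31.2, 36.3 and 30.8 CPM in Sham and 36.4, 32.998 and 36.3 CPM in OVX, with overlapping groups and 0.10 ± 0.10. The ratio of Abca1 to Abcg1 reads was 2.26 in Sham replicate 2 and 1.23 to 1.74 in the others.

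Pathways next to the sterol genes were described in the same fit. In the 5 lists 0 genes had an unadjusted p under 0.05, against 3.75% of all genes tested. Groups did not overlap for 1 higher and 1 lower gene of SREBP processing, 1 higher gene of sterol movement and 0 in the other lists, against 8.44% of all genes. SREBP processing and turnover (proteases and ubiquitin ligases, 8 genes) had 5 higher and 3 lower fitted levels in OVX, a median log2 fold change of 0.027, and Erlin2, an adaptor in INSIG and reductase turnover, had the largest value at -0.20 ± 0.11. Isoprenoid use (ubiquinone, dolichol and prenylation, 11 genes) had 6 higher and 5 lower, a median of 0.0024, and Pdss1, of the ubiquinone side chain, at -0.20 ± 0.16. Fatty acid synthesis (13 genes), the branch under SREBP-1, had 6 higher and 7 lower, a median of -0.022, and the phosphatidate phosphatase Lpin1 at -0.51 ± 0.27. Intracellular sterol movement and storage (13 genes) had 6 higher and 7 lower, a median of -0.0037, and the sterol carrier Gramd1b at -0.39 ± 0.22. Without Sham replicate 2 these values were -0.21 for Lpin1, -0.20 for Gramd1b and -0.10 for Erlin2.

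The list of LXR receptors, oxysterol enzymes and LXR targets had a lower median with all libraries in, but not without Sham replicate 2. Of its 12 genes 9 were tested, and OVX had the higher fitted level in 2 and the lower in 7. The median log2 fold change was -0.32, but 0.045 without that library. Cyp27a1, the mitochondrial sterol 27-hydroxylase, had the largest value at -0.54 ± 0.40, with 30.2 CPM in Sham replicate 2 and 8.86 to 15.3 CPM in the others. Nr1h3, which encodes LXRα, had 20.5 CPM there, 17.7 CPM in OVX replicate 3 and 5.25 to 10.7 CPM in the others, the same 2 libraries that were richest in macrophage markers, whose part was not tested. Nr1h3 was picked after its values were seen. Ch25h, Cyp7b1 and Hsd3b7, oxysterol and bile acid enzymes, had at most 2, 2 and 5 reads in any library and were not tested.

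**Figure D4:**
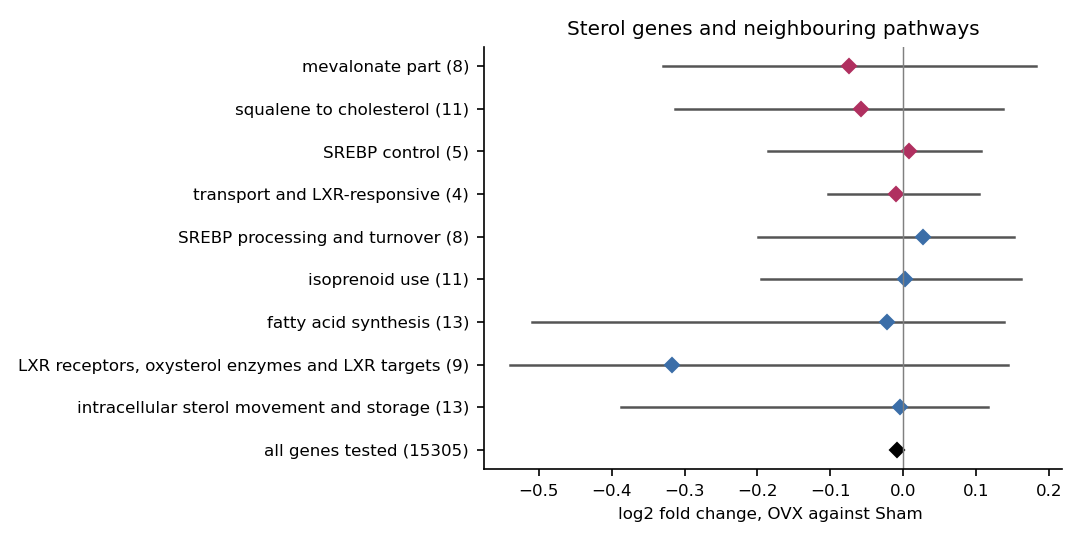
Median log2 fold change of OVX against Sham (diamonds, x axis) and the range from the lowest to the highest gene (lines) for the 4 role groups of sterol genes, the 5 neighbouring lists and all genes tested (median only), with the number of genes tested in brackets. The medians of the sterol groups lie between -0.074 and 0.0077, and the LXR list alone lies apart, at -0.32.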

How the data were processed

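RNA-seq of bone marrow B cells was analysed for 3 Sham and 3 OVX samples, grouped by their labels. ChIP-seq samples were not analysed here. The table the authors deposited holds unnormalized read counts by Ensembl gene. Per the labels, processing notes name CASAVA and Bowtie 0.12.2 with mm10, and the counting tool and its strand setting are not given in the sources used here, which leaves reads of overlapping genes and near-identical copies uncertain (9 of the 28 genes overlap another RefSeq gene). Symbols matched 54409 of 54532 identifiers.

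Counts were tested in R 4.3.3 with edgeR 4.0.16 (filterByExpr by group, TMM factors, quasi-likelihood test, Benjamini-Hochberg over 15305 genes, called at 0.05), without a replicate term. SE is the log2 fold change over the square root of F, and intervals use 95%. limma 3.58.1 and DESeq2 1.42.0, other scalings and filters, covariates and omission of each library were alternatives. Exact permutation tests used log2(CPM + 0.5), with a smallest p of 0.1. Chi-square per degree of freedom between libraries was 9.51 to 74.7, so none repeated another. Intervals cover the spread between samples, and reads carry no molecular identifiers. Per-library values were given for genes with an unadjusted p under 0.05, those with groups apart, those with the highest and lowest p of each role and the main regulators and transporters. Other pathway genes were named for the largest value of their list. The genes and lists were chosen with earlier results of these data known. Levels were not compared between genes, as transcript lengths were not used.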

Additional observations from a re-analysis of the deposited data

How the results depend on the processing

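No sterol gene and no other gene was called in any alternative fit, and the lowest adjusted p was 0.273, without Sham replicate 1. The number of sterol genes at an unadjusted p under 0.05 was 1 with limma-voom, total counts, upper-quartile factors and scaling on 12 B cell genes (Lss in each) and 1 with the neutrophil share as covariate (Insig2). Scaling on B cell genes moved the median of all genes by -0.069, to -0.077. It left 8 sterol genes higher, a sterol median of -0.10, and 1 not overlapping (3.57%, against 8.3% of all genes). It gave medians of -0.044 (SREBP processing), -0.068 (isoprenoid), -0.092 (fatty acid) and -0.071 (sterol movement), and log2 sums of -0.053 (mevalonate), -0.096 (squalene) and -0.068 (SREBP control). It also split the unadjusted calls among all genes 75 higher and 509 lower, against 225 and 349. Those calls, 574 in all, numbered 1269 with no filter, 206 with the replicate block, 153 with the neutrophil and 382 with the cell cycle covariate.

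Same-numbered libraries did not deviate together (their deviations correlated at -0.469, -0.242 and -0.335). With 3 libraries a group that differ in makeup, these values cannot exclude a shared day or batch. With the replicate block the LXR list had a median of -0.16, and the 28 sterol genes again had 0 calls.

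Leaving out 1 library at a time gave 233 (without OVX replicate 2) to 2698 (without Sham replicate 1) unadjusted calls among all genes, with 988 without OVX replicate 1, 360 without Sham replicate 2 and 286 without Sham replicate 3. It gave 0 to 2 such sterol genes, 4 to 8 of 28 not overlapping (14.3% to 28.6%, where 13.7% to 36.1% of all genes did not), 12 to 13 higher, and a sterol median of -0.033 to -0.0074. List medians ran from -0.45 to 0.045 (LXR), -0.011 to 0.058 (SREBP processing), -0.021 to 0.088 (isoprenoid), -0.062 to 0.041 (fatty acid) and -0.036 to 0.033 (sterol movement). Log2 sums ran from -0.0068 to 0.042 (mevalonate), -0.046 to -0.0078 (squalene), -0.032 to 0.038 (SREBP control) and -0.066 to 0.12 (transport).

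Of 578 single-gene values, 32 took the other sign. With total counts these were Fdft1 at -0.011 and Srebf2 at -0.014, and with upper-quartile factors Fdft1 at -0.0034 and Srebf2 at -0.0056. With B cell scaling they were Fdft1 at -0.061, Ebp at -0.00022, Srebf2 at -0.063, Scap at -0.030 and Mylip at -0.018. With the neutrophil covariate they were Pmvk at 0.031, Ggps1 at -0.043, Fdft1 at -0.021, Ebp at -0.065, Srebf1 at 0.016, Scap at -0.054 and Mylip at -0.0023. With the cell cycle covariate they were Fdft1 at -0.076 and Abca1 at 0.21. With 1 library left out 11 genes crossed 0, over ranges of -0.059 to 0.059 (Srebf2), -0.027 to 0.13 (Hmgcs1), -0.059 to 0.036 (Pmvk), -0.12 to 0.12 (Fdft1), -0.29 to 0.33 (Abca1), -0.87 to 0.045 (Cyp27a1), -1.03 to 0.19 (Nr1h3), -0.028 to 0.14 (Ebp), -0.080 to 0.0040 (Srebf1), -0.10 to 0.023 (Tm7sf2) and -0.020 to 0.11 (Mylip). The cause was not tested for any of these. With 3 libraries a group, the SE of the sterol genes ran from 0.070 to 0.33, which limits the differences that could be called.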
